A study of Homo sapiens with 60 samples.

Results

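The genes described here are 39 genes of the lysosome: its regulators TFEB and TFE3, 5 membrane proteins, 7 proteases of the cathepsin group, 7 glycosidases, 4 genes of lipid breakdown and 14 subunits of the proton pump. They were chosen by name, and each of the 39 was found once by gene symbol among the 60675 genes of the count table and passed the filter on low counts, which left 16644 genes for testing. RNA was sequenced from HepG2 cells, a human hepatocellular carcinoma line, 24 h after addition of a water extract. Doses were 20, 100 and 500 µg/mL, with 3 libraries at each dose of the formulas Guibi-tang, Soyo-san, Saengmaek-san and Okbyeongpung-san and of the single herbs Menthae Herba and Saposhnikoviae Radix. The formula Soshiho-tang had 1 library at each dose. The vehicle group had 3 libraries of cells given 0.1% DMSO according to the sample labels, whereas the series description gives 2%, and the same 3 libraries served as vehicle for every extract. The labels do not state that the 3 libraries of a group came from separate cultures, so the tests measure the spread between these libraries, which may be technical. HepG2 is 1 cancer line in culture, and transcript levels say nothing of enzyme activity or of the acidity of the lysosome.

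The lysosome is the acidic compartment in which cells degrade proteins, glycans, lipids and worn organelles. Most of its hydrolases work best in acid, which is supplied by the V-ATPase. This is a pump whose V1 sector in the cytosol splits ATP and whose V0 sector in the membrane carries protons inward. The transcription factors TFEB and TFE3 bind the CLEAR element, a variant of the CACGTG E-box found in the promoters of many of these genes, and are held in the cytosol by phosphorylation through mTORC1 at the lysosome surface, so that their location rather than their amount sets much of their activity. In hepatocytes, lysosomes also degrade lipid droplets and glycogen.

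The CLEAR-type E-box stands close to the start of several of these genes, and 5 promoters are shown because their genes responded differently. The windows run from 250 bases before the start to 10 bases after it, are given 5′ to 3′ on the gene's strand, and come from RefSeq on GRCh38.p14, with each CACGTG in capitals. MCOLN1 is at chr19:7522374-7522633 on the plus strand, CTSA at chr20:45891085-45891344 on the plus strand, LAMP1 at chr13:113296989-113297248 on the plus strand, NEU1 at chr6:31862812-31863071 on the minus strand and GAA at chr17:80101331-80101590 on the plus strand.
MCOLN1: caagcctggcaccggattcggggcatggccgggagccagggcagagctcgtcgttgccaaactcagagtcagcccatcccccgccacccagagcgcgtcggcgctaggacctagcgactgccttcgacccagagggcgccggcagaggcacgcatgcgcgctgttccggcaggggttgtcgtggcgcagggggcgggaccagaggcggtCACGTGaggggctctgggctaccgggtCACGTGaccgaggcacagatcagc
CTSA: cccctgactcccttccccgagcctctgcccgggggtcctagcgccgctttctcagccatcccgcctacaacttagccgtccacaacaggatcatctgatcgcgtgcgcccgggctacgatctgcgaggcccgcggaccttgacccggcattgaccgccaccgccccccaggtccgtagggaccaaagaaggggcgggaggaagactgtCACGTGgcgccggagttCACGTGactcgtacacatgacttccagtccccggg
LAMP1: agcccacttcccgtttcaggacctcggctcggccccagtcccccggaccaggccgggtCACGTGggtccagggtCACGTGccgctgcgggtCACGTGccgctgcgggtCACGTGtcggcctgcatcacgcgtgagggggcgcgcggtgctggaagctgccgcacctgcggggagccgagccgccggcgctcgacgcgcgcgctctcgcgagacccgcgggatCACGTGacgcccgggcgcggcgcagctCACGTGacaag
NEU1: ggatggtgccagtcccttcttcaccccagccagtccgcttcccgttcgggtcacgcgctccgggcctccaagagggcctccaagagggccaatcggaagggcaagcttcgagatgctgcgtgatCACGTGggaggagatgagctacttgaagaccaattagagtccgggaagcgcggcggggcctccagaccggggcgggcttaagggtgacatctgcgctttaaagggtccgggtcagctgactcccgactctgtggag
GAA: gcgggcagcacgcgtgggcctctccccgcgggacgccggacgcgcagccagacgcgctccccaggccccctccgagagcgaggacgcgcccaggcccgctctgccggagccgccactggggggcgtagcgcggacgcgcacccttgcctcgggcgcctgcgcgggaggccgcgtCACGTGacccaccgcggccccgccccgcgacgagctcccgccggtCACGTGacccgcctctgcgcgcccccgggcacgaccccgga
LAMP1 held 6 copies of CACGTG in this window, MCOLN1, CTSA and GAA 2 each, and NEU1 1. The 4 genes MCOLN1, CTSA, LAMP1 and NEU1 rose with Guibi-tang, where 4.93% of all genes rose, and NEU1 fell with Menthae Herba and Soyo-san. GAA did not pass the test in any comparison of 500 against 20 µg/mL, nor did ATP6V0B, whose window also held 2 copies. These promoters were picked by response, so they cannot show whether copies of the E-box go with a rise.

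Of the 39 genes, 28 had at least 1 entry in the promoter table, whose windows run to 50 bases after the start. CACGTG, which reads the same on both strands, was in the window of 9 of the 28 genes (32.1%), against 8.77% of the 27305 genes in the table, where a gene counts if any of its windows holds the motif. Per window it was in 9 of 41 (22%), against 7.26% of all 35116 windows. Its extension TCACGTG, searched on both strands and contained in the same E-boxes, was found for 8 of the 28 genes (28.6%), against 4.49% of all genes, and in 8 of the 41 windows (19.5%), against 3.71% of all windows: LAMP1, MCOLN1, CTSA, CTSD, GAA, NEU1, ATP6V0B and ATP6V0D1. These are matches of letters and not measured binding. CTSB, NAGLU, LAMP2, ATP6V1C1, ATP6V0E1, ASAH1, PSAP, ATP6V1B2, ATP6V1H, ATP6V1A and HEXA had no entry.

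Levels were expressed as CPM, the usual counts scaled to library total, with totals adjusted by the trimmed mean of M-values, and differences as log2 fold changes from edgeR's quasi-likelihood test, with p-values adjusted by the Benjamini-Hochberg method over all 16644 genes and called under 0.05. Library totals were 20446542 to 32386486 counts, and the 39 genes together took 0.396% to 0.436% of the counts in vehicle. Replicate pairs differed by more than counting noise, with a chi-square per degree of freedom of 2.21 to 17.95 over 57 pairs. The noncoding RNA MALAT1 split the libraries into 31 at 175 to 283 CPM and 29 at 387 to 552.5 CPM. This split followed the order of the samples in the series, with a single change along it. All libraries of vehicle, Menthae Herba and Saposhnikoviae Radix were in the lower class, and all of Soyo-san, Okbyeongpung-san and Soshiho-tang in the higher. Saengmaek-san and Guibi-tang were in both. The lower class ended with replicate 2 of Guibi-tang at 500 µg/mL, and the higher began with replicate 2 at 100 µg/mL. Mitochondrial mRNAs took 6.68% to 13.03% of the counts, and 10.01% to 13.03% in vehicle. Hepatocyte markers such as ALB and APOB summed to 37700 to 51060 CPM, 6 fibroblast markers to at most 1.59 CPM and 4 endothelial markers to at most 6.06 CPM. Of 6 leukocyte markers 4 had a median under 1 CPM, with PTPRC at 0 in 57 of the 60 libraries, while LYZ, which encodes lysozyme, ranged between 923 and 2628 CPM. In bulk RNA, fewer cells of a type and less RNA per cell cannot be told apart.

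Levels per kilobase are CPM divided by the merged length of all annotated exons of a gene in GENCODE v29, so the ranking depends on that length. On this scale ATP6V0C, which encodes the proton-carrying ring protein of V0, had the highest level among the 39 genes in vehicle at 166 ± 3.53 CPM per kb (SD, n = 3). CTSD, the aspartic protease cathepsin D, followed at 134.5 ± 10.5, and PSAP, the precursor of the saposins that present sphingolipids to their hydrolases, at 112 ± 6.26 CPM per kb. NEU1 and CTSA were close to each other at 69.6 ± 3.44 and 65.9 ± 2.69 CPM per kb. At the low end TFEB had 3.46 ± 0.469, the calcium-releasing channel MCOLN1 3.03 ± 0.117 and the carboxypeptidase CTSZ 0.156 ± 0.0551 CPM per kb. CTSZ was thus near the limit of detection, between 0.0835 and 0.676 CPM over all 60 libraries, and is not interpreted further.

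Guibi-tang had more of these genes called higher with dose than any other extract. At 500 against 20 µg/mL, 18 of the 39 genes rose and none fell, against 8.12% of all genes called, 4.93% higher and 3.2% lower. The median log2 fold change of the 39 was 0.213, against -0.002 over all tested genes. All libraries of 500 µg/mL lay above those of 20 µg/mL for 23 of the 39 genes and below them for 2. Of all tested genes, 11.3% lay above and 10.7% below without overlap. At an unadjusted p under 0.05, 23 rose and 2 fell. For counts at that threshold, here and below, the share over all genes is not given. DESeq2 called 19 of the 39 genes, and 1371 over all genes. The genes that rose covered every role except the regulators and the accessory subunits of the pump: 2 of 5 membrane proteins, 4 of 7 cathepsins, 3 of 7 glycosidases, 1 of 4 lipid genes, 3 of 5 V0 subunits and 5 of 7 V1 subunits. The heat map of log2 fold changes by role sets these beside the other extracts.

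**Figure D1:**
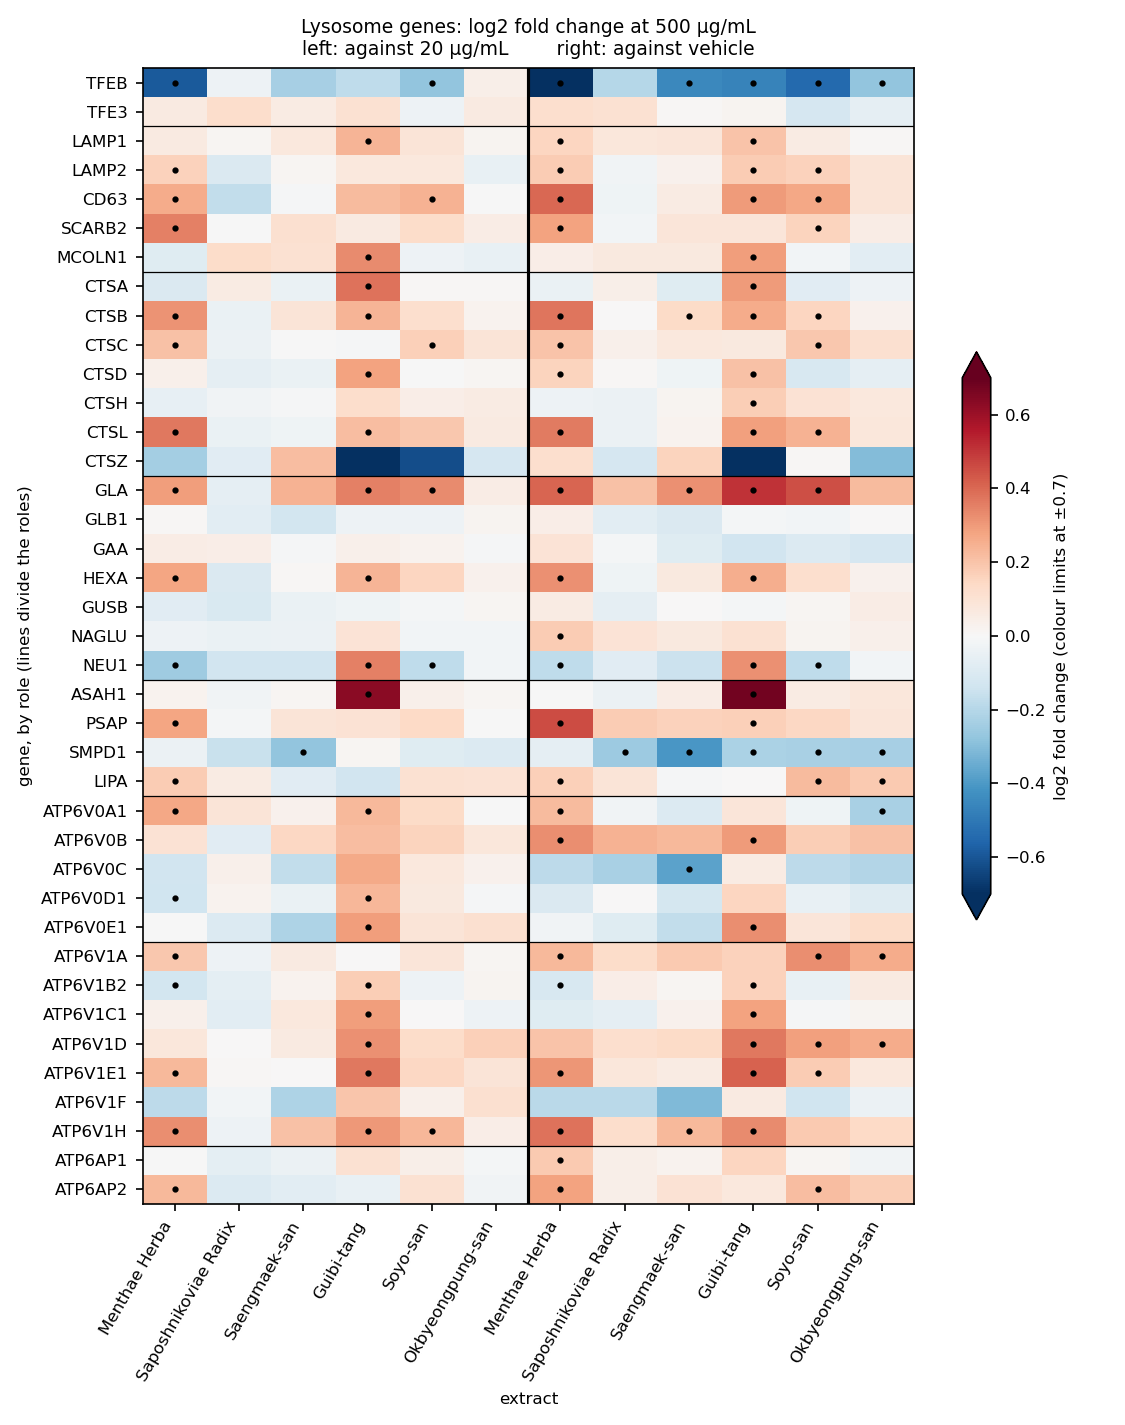
Log2 fold change of the 39 genes at 500 µg/mL against 20 µg/mL (6 columns on the left) and against vehicle (6 columns on the right), for the 6 extracts with 3 libraries per dose; rows are genes grouped by role, colour is the log2 fold change and a black dot marks an adjusted p under 0.05. Guibi-tang carries 18 dots on the left, all in red cells, Menthae Herba 15 in red and 4 in blue cells, and Saposhnikoviae Radix and Okbyeongpung-san none.

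ASAH1, at chr8:18055992-18084998 on the minus strand of GRCh38, encodes acid ceramidase, which splits ceramide into sphingosine and fatty acid. It had 152, 155 and 149 CPM in the 3 libraries of Guibi-tang at 500 µg/mL, against 91.8, 103 and 99.8 CPM at 20 µg/mL. All libraries of the higher dose lay far above those of the lower, and those of 100 µg/mL lay between with 108, 117 and 115 CPM. The log2 fold change was 0.63 ± 0.05 (SE, adjusted p = 7.95e-15). Against vehicle, at 101, 91.3 and 93.0 CPM, it was 0.68 ± 0.05 at 500 µg/mL (adjusted p = 4.87e-16) and 0.25 ± 0.05 at 100 µg/mL (adjusted p = 0.000507), and the call at 100 µg/mL was lost when only those groups were fitted (adjusted p = 0.0744). With every other replicated extract ASAH1 kept to group means of 91.6 to 100.3 CPM at each dose, and none of those comparisons was called.

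CTSA encodes the serine carboxypeptidase that also forms a stabilising complex with the sialidase NEU1 and with beta-galactosidase. It had 476, 491 and 454 CPM with Guibi-tang at 500 µg/mL, against 394, 349 and 350.5 CPM at 20 µg/mL, and the doses did not overlap. The log2 fold change was 0.38 ± 0.05 (adjusted p = 6.67e-08). NEU1, its partner, removes terminal sialic acids from glycoproteins and glycolipids. It had 452, 419 and 386 CPM at 500 µg/mL, against 363, 312 and 309 CPM at 20 µg/mL, with a gap between the doses that was narrow (log2 fold change 0.35 ± 0.06, adjusted p = 1.23e-05). CTSA overlaps genes on the opposite strand, and RSEM gave it a fractional count in 58 of 60 libraries, so part of its reads was assigned by estimate.

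GLA, at chrX:101397803-101408012 on the minus strand of GRCh38, encodes alpha-galactosidase A, the enzyme missing in Fabry disease. It had 24.9, 23.8 and 22.3 CPM with Guibi-tang at 500 µg/mL, against 19.6, 18.4 and 17.5 CPM at 20 µg/mL. Again the doses did not overlap (log2 fold change 0.36 ± 0.08, adjusted p = 0.000796). HEXA, the alpha subunit of beta-hexosaminidase, rose by 0.24 ± 0.05 (adjusted p = 0.00121). Among the cathepsins CTSD rose by 0.28 ± 0.06 (adjusted p = 0.00157), the cysteine protease CTSB by 0.24 ± 0.04 (adjusted p = 3.77e-05) and the endopeptidase CTSL by 0.22 ± 0.07 (adjusted p = 0.0308). Part of the reads of HEXA and CTSD was assigned by estimate, with a fractional count in 60 and 59 of 60 libraries, and both overlap genes on either strand. The remaining glycosidases GLB1, GAA, GUSB and NAGLU had log2 fold changes of -0.04, 0.04, -0.03 and 0.09, none called.

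In the membrane, LAMP1, a main glycoprotein of the lysosomal wall, had 282, 274 and 258 CPM with Guibi-tang at 500 µg/mL, against 249, 223.5 and 219 CPM at 20 µg/mL. The doses were separate (log2 fold change 0.24 ± 0.05, adjusted p = 0.000512). LAMP2, whose splice forms take part in chaperone-mediated and macroautophagy, had 140.3, 142 and 151 CPM against 135, 138 and 138 CPM, which did not overlap but was not called (0.08 ± 0.05, adjusted p = 0.444). MCOLN1 had 14.8, 15.7 and 13.4 CPM at 500 µg/mL, against 13.1, 11.3 and 10.6 CPM at 20 µg/mL, a difference of 0.33 ± 0.09 (adjusted p = 0.00751), and overlaps 2 genes on its own strand, with a fractional count in 24 of 60 libraries. The tetraspanin CD63 and SCARB2, an integral protein of the lysosomal membrane, were not called, at 0.22 and 0.06.

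Subunits of the proton pump made up 8 of the 18 genes that rose with Guibi-tang. ATP6V1E1, a stalk subunit of V1, had 70.7, 64.3 and 63.5 CPM at 500 µg/mL, against 53.8, 51.6 and 48.7 CPM at 20 µg/mL. The lowest library of the higher dose stood well above the highest of the lower dose (log2 fold change 0.37 ± 0.06, adjusted p = 4.95e-06). The other V1 subunits called were ATP6V1D at 0.32, ATP6V1H at 0.30, ATP6V1C1 at 0.29 and ATP6V1B2, the nucleotide-binding subunit of most tissues, at 0.17. In V0 the called subunits were ATP6V0E1 at 0.29, ATP6V0D1 at 0.23 and ATP6V0A1 at 0.23. The catalytic subunit ATP6V1A, at 0.0002 ± 0.07, and the accessory subunits ATP6AP1 and ATP6AP2, at 0.11 and -0.05, were not called. ATP6V0C and ATP6V0E1 each have 4 annotated pseudogenes. ATP6V0C also overlaps 2 genes on its own strand and had a fractional count in 55 of 60 libraries, while ATP6V0E1 had one in 0. ATP6V1D, which overlaps a gene on the opposite strand, had one in 41 of 60.

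Of the 18 genes, 14 remained when the third library of Guibi-tang at 20 µg/mL was left out, the lowest count of the 6 such fits. CTSL and ATP6V0E1 lost their call in 5 of the 6, MCOLN1 without the second library at 500 or the third at 20 µg/mL, ATP6V1B2 without the first at 500 or the third at 20 µg/mL, and ATP6V1D without the first at 500 µg/mL. The libraries of Guibi-tang fell into both MALAT1 classes. Within the lower class, with 2 libraries at 500 and 1 at 20 µg/mL, 30 of the 39 genes were higher at the higher dose, as were 49.4% of all genes, with a median log2 difference of 0.153 and ASAH1 at 0.74. Within the higher class, with 1 and 2 libraries, 30 of 39 were higher, as were 48.8% of all genes, with a median of 0.161 and ASAH1 at 0.55. Beside these genes, 4 of 9 hepatocyte markers fell (AFP by 0.30, FGB by 0.28, ALB by 0.22 and TF by 0.20 on the log2 scale), against 3.2% of all genes lower. The sum of the 9 was 41250 to 43910 CPM at 500 µg/mL, against 46000 to 49380 CPM at 20 µg/mL. APOB, the most abundant of the 9 with a median of 25210 CPM over all libraries, was not among these 4, so the sum does not follow them alone. The part of these markers in the result was not tested.

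Neither regulator transcript rose with Guibi-tang. TFEB, at chr6:41683978-41736259 on the minus strand of GRCh38, had 13.8, 14.1 and 14.3 CPM at 500 µg/mL, against 18.4, 14.2 and 15.2 CPM at 20 µg/mL, and the doses overlapped (log2 fold change -0.18 ± 0.08, adjusted p = 0.208). TFE3 had 51.8, 52.5 and 49.2 CPM against 49.0, 45.2 and 48.4 CPM, and its doses were separate by a small margin without a call (0.11 ± 0.05, adjusted p = 0.228). Other genes of this pathway, from a list of regulators of TFEB and TFE3 at the lysosome, rose in 8 of 19 cases with none lower, against 4.93% of all genes higher and 3.2% lower. Among them were RRAGD at 1.23 ± 0.29 and RRAGC at 0.38 ± 0.07, which encode Rag GTPases that recruit mTORC1, and FLCN, the folliculin that activates them, at 0.47 ± 0.08. RRAGD was scarce, with 1.53 ± 0.516 CPM at 500 µg/mL and 0.660 ± 0.318 CPM at 20 µg/mL (SD, n = 3 each).

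Lysosomal genes outside the 39 were counted in lists of the same kind. With Guibi-tang, 8 of 20 other membrane proteins rose and none fell, against 4.93% of all genes higher and 3.2% lower, led by CLCN7, the chloride-proton exchanger, at 0.53 ± 0.08 (adjusted p = 1.92e-06), CTNS, the cystine exporter, at 0.41 ± 0.05 (adjusted p = 9.19e-08) and CLN3 at 0.34 ± 0.05 (adjusted p = 1.92e-06). Of 27 other hydrolases and activators 7 rose and none fell, among them the iduronate sulfatase IDS at 0.41 ± 0.07 (adjusted p = 5.12e-05). Both mannose 6-phosphate receptors, IGF2R at 0.32 and M6PR at 0.25, rose among the 11 genes of hydrolase delivery. Whether others of the 11 rose or fell is not given here. Of 9 further pump subunits only ATP6V1G1 rose, by 0.27.

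Menthae Herba changed 19 of the 39 genes, in both directions. At 500 against 20 µg/mL, 15 of the 39 rose and 4 fell, against 32.1% of all genes called, 16.3% higher and 15.8% lower. The median of the 39 was 0.053, against -0.005 over all tested genes. All libraries of the higher dose lay above those of the lower for 16 of the 39 genes and below them for 4. Of all tested genes, 22% lay above and 21.7% below without overlap. CTSL, at chr9:87725519-87731393 on the plus strand of GRCh38, had 53.8, 52.6 and 52.1 CPM at 500 µg/mL, against 42.2, 43.1 and 37.7 CPM at 20 µg/mL. The doses stood clear of each other (log2 fold change 0.37 ± 0.07, adjusted p = 1.21e-05). CTSL has 6 annotated pseudogenes, but every one of its 60 counts was whole.

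SCARB2 had 93.1, 95.4 and 99.1 CPM with Menthae Herba at 500 µg/mL, against 76.5, 78.6 and 70.1 CPM at 20 µg/mL, without overlap (log2 fold change 0.35 ± 0.05, adjusted p = 5.43e-08). ATP6V1H, the regulatory subunit of V1, had 30.5, 29.02 and 29.7 CPM, against 23.6, 24.3 and 23.6 CPM. That difference of 0.32 ± 0.07 (adjusted p = 0.000337) was also without overlap. PSAP was even across libraries: 498, 497 and 498 CPM at 500 µg/mL, against 420.5, 409 and 404 CPM at 20 µg/mL (log2 fold change 0.28 ± 0.06, adjusted p = 0.000114). The dipeptidyl peptidase CTSC rose by 0.21, LIPA, the acid lipase for cholesteryl esters and triglycerides, by 0.18, and CTSB by 0.32 on the log2 scale.

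TFEB fell with Menthae Herba. It had 11.3, 11.8 and 11.9 CPM at 500 µg/mL, against 17.7, 17.4 and 17.7 CPM at 20 µg/mL, and between them 14.6, 16.1 and 16.6 CPM at 100 µg/mL. The 3 doses did not overlap, and 500 against 20 µg/mL gave -0.59 ± 0.08 (adjusted p = 8.03e-08). TFE3 had 54.7, 54.5 and 55.3 CPM at 500 µg/mL, against 50.2, 50.3 and 56.99 CPM at 20 µg/mL, and was not called (0.06 ± 0.05, adjusted p = 0.378). NEU1 also fell, with 294, 302 and 297 CPM against 366, 355.5 and 339 CPM and no overlap (log2 fold change -0.25 ± 0.06, adjusted p = 0.000501). The other 2 that fell were ATP6V0D1, by 0.14, and ATP6V1B2, by 0.13 on the log2 scale, each of which lost its call in 4 or more of the 6 fits without 1 library.

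LAMP1 had 265, 259 and 263 CPM with Menthae Herba at 500 µg/mL, against 255, 242 and 257 CPM at 20 µg/mL, separate by a small margin and not called (0.06 ± 0.05, adjusted p = 0.362). LAMP2 had 142, 146 and 145.5 CPM against 134, 139 and 116 CPM, without overlap, and was called at 0.16 ± 0.05 (adjusted p = 0.00978). The low value of the third library at 20 µg/mL mattered here: without it the call was lost (0.09, adjusted p = 0.184). Without that library 12 of the 19 genes were called, and CD63, GLA, LIPA, ATP6V0D1, ATP6V1A and ATP6AP2 were lost with LAMP2; CTSL, SCARB2, ATP6V1H, TFEB, NEU1 and PSAP kept theirs. Outside the 39, the cholesterol exporter NPC1 rose by 0.73 ± 0.05 (adjusted p = 4.86e-19) among 7 of 20 membrane proteins that rose, with none lower, against 16.3% of all genes higher and 15.8% lower. Of 27 hydrolases and activators 10 rose and 1 fell, GM2A, the activator of ganglioside breakdown, at -0.35 ± 0.04 (adjusted p = 5.61e-10). LYZ rose by 1.24 ± 0.06, and the summed leukocyte markers, which LYZ carried, were 2504 to 2628 CPM at 500 µg/mL, against 996 to 1170 CPM at 20 µg/mL, with PTPRC and CD3E at or near 0. All 9 Menthae Herba libraries were in the lower MALAT1 class.

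**Figure D2:**
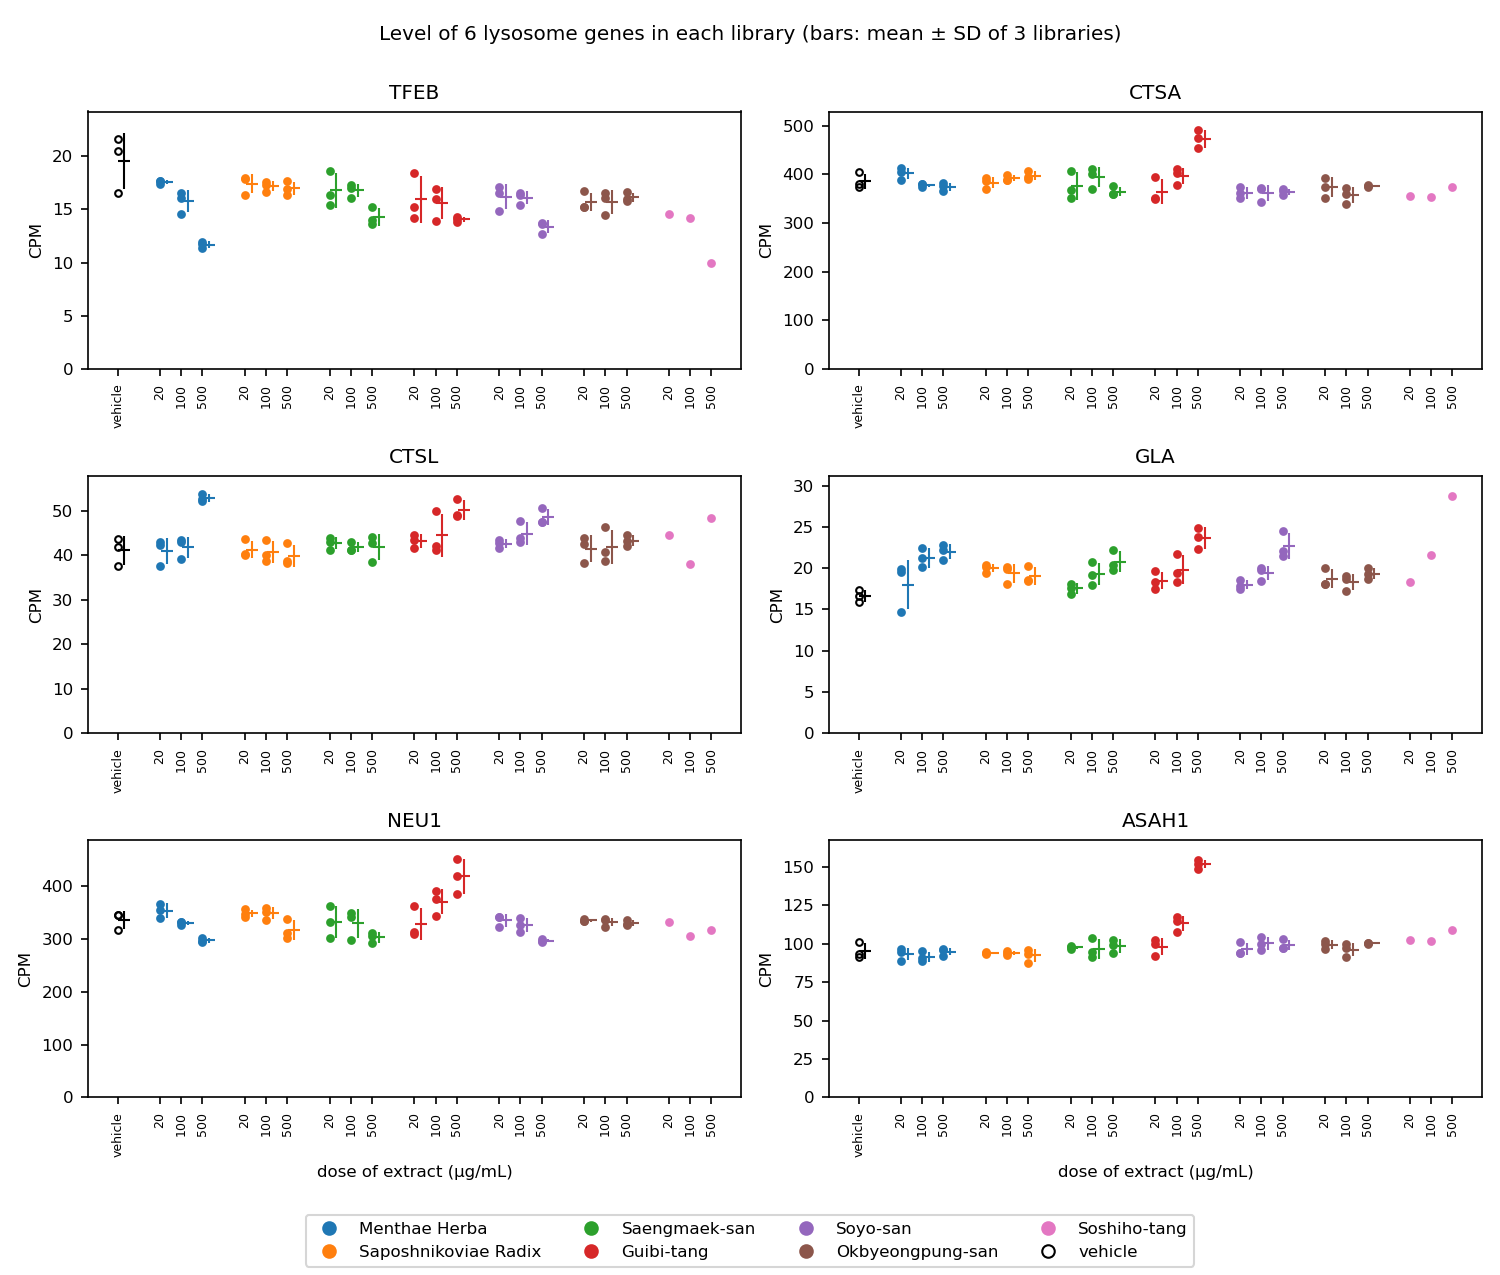
CPM of 6 genes in each library on linear axes from 0, with vehicle and then the doses in µg/mL of each extract along the x axis; points are libraries and the cross bars beside them the mean ± SD of 3 libraries (Soshiho-tang has 1 library per dose and no bar). ASAH1 at 149 to 155 CPM and CTSA at 454 to 491 CPM stand out for Guibi-tang at 500 µg/mL, and TFEB is low at 11.3 to 11.9 CPM for Menthae Herba at 500 µg/mL.

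With both Guibi-tang and Menthae Herba, 7 genes were called higher: CTSB, CTSL, GLA, HEXA, ATP6V0A1, ATP6V1E1 and ATP6V1H, or 38.9% of the 18 and 46.7% of the 15. Of all genes 4.93% were called higher with Guibi-tang and 16.3% with Menthae Herba. The share called higher with both was not worked out, so the overlap is not read as a shared response. CTSL lost its Guibi-tang call in most fits without 1 library, and GLA its Menthae Herba call without the third library at 20 µg/mL. The difference between the dose changes was tested in the same fit, a comparison chosen after the values of both extracts had been seen. It was called for 13 of the 39 genes, against 16.5% of all genes, 8.57% higher and 7.94% lower, with 9 higher and 4 lower in Guibi-tang. Acid ceramidase ASAH1 differed by 0.61 ± 0.07 (adjusted p = 9.62e-10), NEU1 by 0.60 ± 0.08 (adjusted p = 1.45e-07), CTSA by 0.48 ± 0.07 (adjusted p = 5.04e-07) and ATP6V0D1 by 0.37 ± 0.08 (adjusted p = 0.000271). SCARB2, CTSC, LIPA and ATP6AP2 were the 4 genes with the lower change in Guibi-tang. Differences of ATP6AP2, ATP6V0C and MCOLN1 lost their call in 4 or more fits without 1 library, TFEB without the second Guibi-tang library at 20 µg/mL, and CTSC and ATP6V1C1 without the third and the second Menthae Herba library at 20 µg/mL.

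The E-box genes are described beside the other members. With Guibi-tang, 6 of the 8 genes with TCACGTG rose, with a median log2 fold change of 0.261, against 5 of the 20 without it, with a median of 0.107; of all genes 4.93% were called higher. With Menthae Herba, none of the 8 rose and 2 fell, with a median of -0.023, against 9 of 20 that rose and 1 that fell without the motif, with a median of 0.071; of all genes 16.3% were called higher and 15.8% lower. GAA, with 2 E-boxes in its window, had 0.04 with Guibi-tang and 0.05 with Menthae Herba. Of the 11 genes without a promoter entry 7 rose with Guibi-tang, ASAH1 among them. No test was made between these sets, and whether either factor was bound was not measured.

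**Figure D3:**
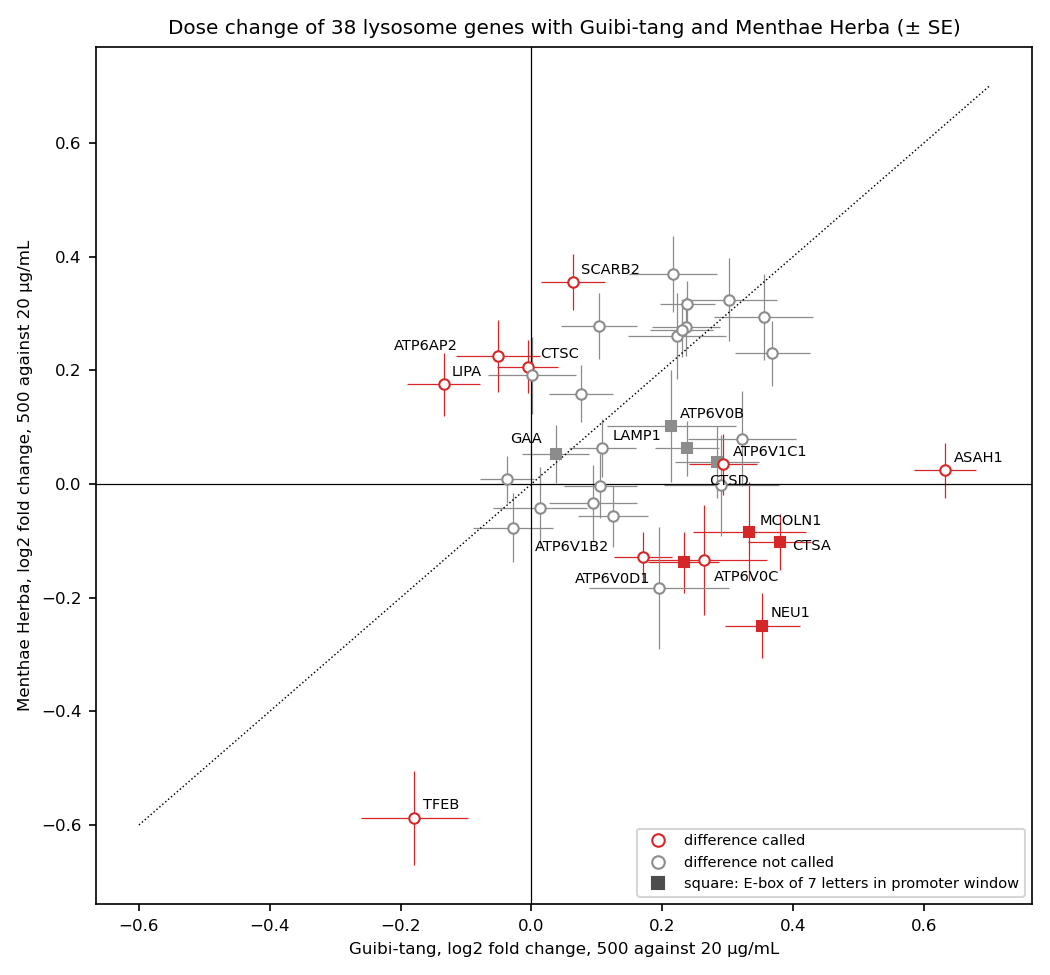
Log2 fold change of 500 against 20 µg/mL with Guibi-tang (x axis) and with Menthae Herba (y axis) for 38 genes (CTSZ, near 0 CPM, is not drawn); bars are 1 SE, red marks a called difference between the extracts, filled squares mark genes with TCACGTG in the promoter window and the dotted line is equality. NEU1, CTSA, MCOLN1 and ATP6V0D1 lie below the line at the right, and TFEB lies at -0.59 on the Menthae Herba axis.

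Soyo-san gave a small response. At 500 against 20 µg/mL, 4 of the 39 genes rose and 2 fell, against 7.58% of all genes called, 4.24% higher and 3.34% lower. All libraries of the higher dose lay above those of the lower for 17 of the 39 genes and below them for 2. Of all tested genes, 13.1% lay above and 13.3% below without overlap. GLA had 24.5, 22.1 and 21.5 CPM at 500 µg/mL, against 18.6, 17.9 and 17.5 CPM at 20 µg/mL, with no overlap (log2 fold change 0.33 ± 0.08, adjusted p = 0.00224). CD63 had 108, 109 and 107 CPM against 91.7, 89.7 and 92.6 CPM (0.24 ± 0.08, adjusted p = 0.0366). ATP6V1H had 27.3, 26.0 and 24.7 CPM against 22.0, 22.8 and 21.5 CPM (0.23 ± 0.07, adjusted p = 0.0433). These doses were separate for both genes, and so were those of TFEB, which fell with 12.7, 13.7 and 13.8 CPM against 14.9, 17.1 and 16.6 CPM (-0.28 ± 0.08, adjusted p = 0.0292).

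CTSC rose by 0.17 and NEU1 fell by 0.18 with Soyo-san (adjusted p = 0.0153 and 0.0495). TFE3 had 45.1, 48.7 and 46.1 CPM at 500 µg/mL, against 46.1, 47.5 and 49.6 CPM at 20 µg/mL, LAMP1 246, 249 and 243 CPM against 232, 227 and 234.5 CPM, and LAMP2 147.5, 139 and 142 CPM against 136, 139 and 131 CPM. The LAMP1 doses were separate, those of LAMP2 nearly touched, those of TFE3 overlapped, and none of the 3 was called. Only GLA kept its call whichever library was left out: the count was 3 without the first or the third library at 500 µg/mL, 2 without the second at 500 or the second or the third at 20 µg/mL, and 4 without the first at 20 µg/mL. The NPC1 transcript rose by 0.34 ± 0.05 here (adjusted p = 1.78e-07) and LYZ by 0.71 ± 0.06, with summed leukocyte markers of 1771 to 1873 CPM at 500 µg/mL, against 1082 to 1157 CPM at 20 µg/mL.

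The other 3 replicated extracts scarcely moved these genes with dose. With Saengmaek-san, 1 of the 39 was called, against 1.96% of all genes, 0.913% higher and 1.05% lower: SMPD1, acid sphingomyelinase, fell with 15.1, 15.8 and 14.2 CPM at 500 µg/mL, against 19, 18.6 and 16.9 CPM at 20 µg/mL. The doses were separate (log2 fold change -0.28 ± 0.07, adjusted p = 0.0299), as were those of 7.76% of all tested genes upward and 7.68% downward. The SMPD1 call was lost without the first or the third library at 500 µg/mL or without the first or second at 20 µg/mL. Within the lower MALAT1 class 15 of 39 genes were higher at the higher dose, as were 48.8% of all genes, with medians of -0.039 and -0.004. Within the higher class 22 of 39 were higher, as were 50.8% of all genes, with medians of 0.035 and 0.003. With Saposhnikoviae Radix none of the 39 was called, against 0.397% of all genes. At an unadjusted p under 0.05 there were 4, and DESeq2 called 0, against 100 over all genes. With Okbyeongpung-san none was called, against 0.024% of all genes. At an unadjusted p under 0.05 there were 0, and DESeq2 called 0, against 6 over all genes. Apart from CTSZ, the intervals of ± 2 SE reached no further than -0.32 (CD63) and 0.30 (MCOLN1) with Saposhnikoviae Radix, and -0.24 (SMPD1) and 0.33 (ATP6V1D) with Okbyeongpung-san.

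TFEB had 14.0, 15.2 and 13.6 CPM with Saengmaek-san at 500 µg/mL, against 18.6, 16.4 and 15.4 CPM at 20 µg/mL, which did not overlap but was not called (-0.23 ± 0.08, adjusted p = 0.16). With Saposhnikoviae Radix it had 17.6, 16.9 and 16.4 CPM against 16.4, 17.9 and 17.9 CPM, and with Okbyeongpung-san 16.0, 15.8 and 16.6 CPM against 15.2, 16.7 and 15.2 CPM. Those pairs of doses overlapped. TFE3, LAMP1 and LAMP2 lay within 46.4 to 56.9 CPM, 236 to 263 CPM and 119 to 137 CPM at 500 µg/mL of these 3 extracts.

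The dose changes of extracts that share a code number in the sample descriptions were compared directly. Menthae Herba minus Saposhnikoviae Radix was called for 13 of the 39 genes, against 20% of all genes, 10% higher and 9.99% lower, with 12 higher and TFEB lower at -0.55 ± 0.11 (adjusted p = 0.000239). Saengmaek-san minus Guibi-tang was called for 6, against 1.15% of all genes, 0.324% higher and 0.829% lower, all lower in Saengmaek-san: ASAH1 at -0.62 ± 0.07 (adjusted p = 8.38e-09), ATP6V0E1, NEU1, CTSA, ATP6V1E1 and CTSD. Fitted on those groups alone, only ASAH1 remained, and without the third library of Guibi-tang at 20 µg/mL 3 remained. Soyo-san minus Okbyeongpung-san was called for none, against 2.36% of all genes. At an unadjusted p under 0.05 there were 3, and DESeq2 called 0, against 471 over all genes.

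Against vehicle the counts at 500 µg/mL were larger, but all 18 comparisons share the same 3 vehicle libraries, and vehicle has a code number of its own that no extract shares, so that code and treatment cannot be told apart. At 500 µg/mL, Guibi-tang raised 21 and lowered 2 of the 39 genes, against 13.4% of all genes called, 6.69% higher and 6.72% lower. Menthae Herba raised 20 and lowered 3, against 39.8% of all genes, 19.8% higher and 20% lower. Soyo-san raised 12 and lowered 3, against 21.5%, 10.1% higher and 11.4% lower. Saengmaek-san raised 3 and lowered 3, against 12.6%, 5.67% higher and 6.98% lower, and Okbyeongpung-san raised 3 and lowered 3, against 9.11%, 4.22% higher and 4.9% lower. Saposhnikoviae Radix lowered 1, against 5.8%, 2.99% higher and 2.82% lower. Every Soyo-san and Okbyeongpung-san library was in the other MALAT1 class from vehicle, so there is no value within a class; with the class as a term in the fit they had 14 and 9 calls, against 15 and 6 without it, but only 8 of the 15 Soyo-san genes and 1 of the 6 Okbyeongpung-san genes stayed called. The direction of the calls moved as well: with the term 13 genes were higher and 1 lower for Soyo-san, and 8 higher and 1 lower for Okbyeongpung-san. Without the third vehicle library Soyo-san had 9 calls and Okbyeongpung-san 1. The count of Okbyeongpung-san was 2 or 3 without the second vehicle library or any 1 of its own libraries. For Saposhnikoviae Radix the count was 2 without the first vehicle library and 0 without the second or without its own first library.

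**Figure D4:**
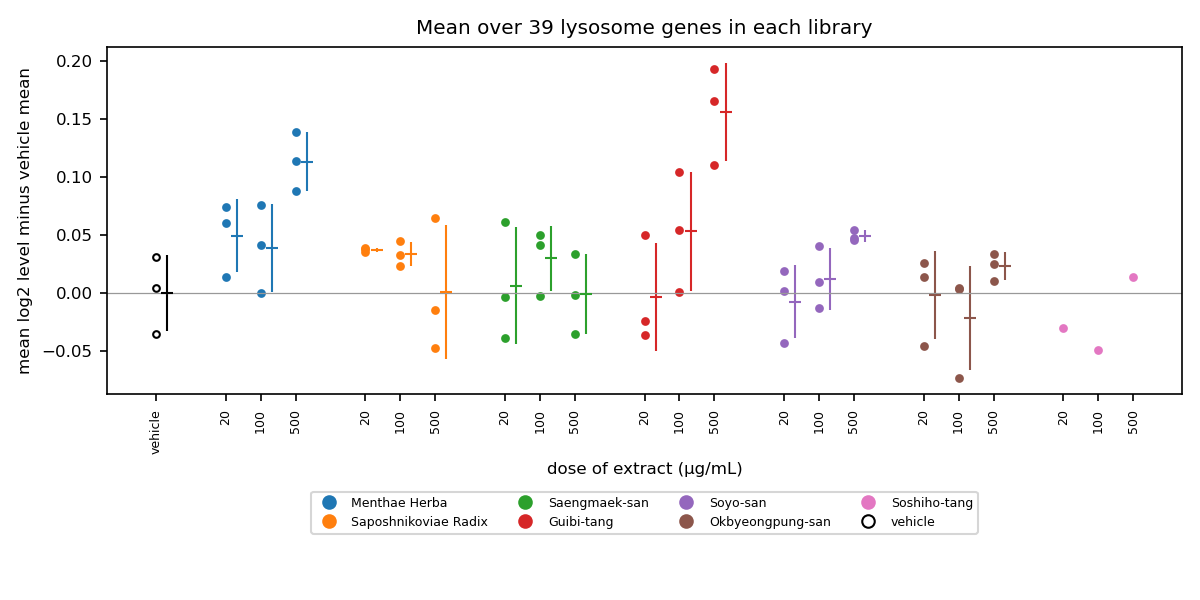
Mean over the 39 genes of the log2 level of each library minus its mean in vehicle, with vehicle and the doses in µg/mL of each extract along the x axis; points are libraries and the cross bars the mean ± SD of 3 libraries. The 3 Guibi-tang libraries at 500 µg/mL lie at 0.11 to 0.193 and those of Menthae Herba at 0.0874 to 0.138, above the vehicle libraries at -0.0351 to 0.0306.

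TFEB was lower than vehicle in 12 of the 18 comparisons and higher in none. Vehicle had 16.6, 20.5 and 21.7 CPM, so its first library stood with the extracts and the other two above them. At 500 µg/mL the log2 fold changes were -0.74 ± 0.08 for Menthae Herba (adjusted p = 1.3e-10), -0.54 ± 0.08 for Soyo-san (adjusted p = 1.37e-06), -0.47 ± 0.08 for Guibi-tang (adjusted p = 2.54e-05) and -0.45 ± 0.08 for Saengmaek-san (adjusted p = 8.31e-05), and these 4 calls were kept in every alternative run. For Okbyeongpung-san at 500 µg/mL and the 7 calls at 100 or 20 µg/mL, leaving out the third vehicle library ended the call.

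GLA was higher than vehicle in 7 of the 18 comparisons, where vehicle had 16.6, 17.3 and 15.9 CPM. At 500 µg/mL it was called for Guibi-tang at 0.51 ± 0.08 (adjusted p = 1.92e-06), Soyo-san at 0.45 ± 0.08 (adjusted p = 1.46e-05), Menthae Herba at 0.41 ± 0.08 (adjusted p = 2.1e-05) and Saengmaek-san at 0.32 ± 0.08 (adjusted p = 0.00296), and these calls were kept in every alternative run. Of its calls at lower doses, those of Guibi-tang at 100 and Saposhnikoviae Radix at 20 µg/mL were lost without the first or the third vehicle library. SMPD1 ran the other way: it was lower than vehicle, at 18.8, 20.7 and 20.4 CPM, in 9 comparisons and higher in none. The lowest replicated mean was 15.0 ± 0.802 CPM for Saengmaek-san at 500 µg/mL (log2 fold change -0.41 ± 0.07, adjusted p = 7.02e-05), the single one of the 9 that held in every alternative run. Of the others, 7 lost their call without the second vehicle library, and Okbyeongpung-san at 100 µg/mL without the third of its own libraries.

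PSAP had 339, 372 and 376 CPM in vehicle, and its largest change was 0.46 ± 0.06 for Menthae Herba at 500 µg/mL (adjusted p = 3.49e-09). Its other 5 calls against vehicle were lost without the first vehicle library. Of the pump subunits, ATP6V1A was called higher for Okbyeongpung-san at 20, 100 and 500 µg/mL, at 0.25, 0.34 and 0.26, and for Soyo-san at 0.24, 0.29 and 0.32; with the MALAT1 class as a term only Okbyeongpung-san at 100 and Soyo-san at 500 µg/mL stayed called. ATP6V0A1, the membrane subunit that carries the proton path, was called lower for Okbyeongpung-san at -0.22, -0.20 and -0.23 at the same doses. Over all comparisons against vehicle it was called lower in 5 and higher in 1, the latter at 500 µg/mL. ATP6V0C was lower for Saengmaek-san at 500 µg/mL by 0.37 and for Okbyeongpung-san at 100 µg/mL by 0.48 on the log2 scale. With the class term 1 of 4, 3 of 6 and 1 of 6 Okbyeongpung-san calls stayed at 20, 100 and 500 µg/mL. Whether those of ATP6V0A1 and ATP6V0C were among them is not given here. All 6 Saengmaek-san calls at 500 µg/mL stayed. With only the groups compared, Okbyeongpung-san at 20 µg/mL had 0 calls, so the ATP6V0A1 call there was lost.

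The lower doses called few of the 39 genes against vehicle. At 100 µg/mL 7 were called for Menthae Herba (against 14% of all genes) and 6 each for Guibi-tang (7.96%) and Okbyeongpung-san (12.9%). Soyo-san had 4 (8.31%), Saposhnikoviae Radix 1 (5.47%) and Saengmaek-san 0 (6.05%). For Saengmaek-san 8 genes had an unadjusted p under 0.05, and DESeq2 called 1, against 1278 over all genes. At 20 µg/mL 4 were called for Okbyeongpung-san (6.99%) and 3 each for Menthae Herba (6.83%), Saposhnikoviae Radix (7.19%), Guibi-tang (4.38%) and Soyo-san (3.88%). Saengmaek-san had 0 (3.37%), with 4 genes at an unadjusted p under 0.05 and 0 by DESeq2, against 735 over all genes. The calls of the formulas depended on the MALAT1 class. With it as a term, Guibi-tang at 20 µg/mL had 2 genes higher and 0 lower, against 0 higher and 3 lower without it, and none of the 3 stayed called. At 20 µg/mL 1 of the 3 Soyo-san genes and 1 of the 4 Okbyeongpung-san genes stayed called, with 3 higher and 1 lower for Soyo-san, against 1 and 2 without the term, and 6 higher and 1 lower for Okbyeongpung-san, against 2 and 2. At 100 µg/mL 3 of the 6 Guibi-tang genes, 2 of the 4 Soyo-san genes and 3 of the 6 Okbyeongpung-san genes stayed called. Their calls there were 10 higher and 0 lower for Guibi-tang with the term, against 4 and 2 without it, 5 higher and 1 lower for Soyo-san, against 2 and 2, and 7 higher and 2 lower for Okbyeongpung-san, against 1 and 5. As shares of the 39 genes the counts without the term were 17.9% for Menthae Herba and 15.4% for Guibi-tang and Okbyeongpung-san at 100 µg/mL, and at most 10.3% in the others. At 100 µg/mL the count for Menthae Herba was 3, 2 and 3 without the first vehicle library or its own first or second library, that for Guibi-tang 3, 1 and 3 without the second or the third vehicle library or its own second, that for Soyo-san 1 and 0 without the second vehicle library or the third of its own libraries, and that for Okbyeongpung-san 3 without the third of its own libraries. For Saposhnikoviae Radix it was 0 without the first vehicle library or any of its own, and for Saengmaek-san 1 without the first or the third vehicle library. At 20 µg/mL the count was 0 or 1 for Menthae Herba and Saposhnikoviae Radix without the first vehicle library or without single libraries of their own, 0 for Guibi-tang and Soyo-san without the second or the third vehicle library or either of 2 libraries of their own, 1 for Okbyeongpung-san without the second or the third vehicle library or the third of its own libraries, and 1 for Saengmaek-san without the first vehicle library.

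Soshiho-tang had 1 library per dose, so its values have no replicate check and no test. GLA had 18.3 CPM at 20, 21.6 CPM at 100 and 28.8 CPM at 500 µg/mL, the last being the highest of the 60 libraries. TFEB had 14.6 CPM at 20, 14.2 CPM at 100 and 9.96 CPM at 500 µg/mL, the last being the lowest of the 60 libraries. GLA was the single gene of the 39 with a log2 ratio of 500 over 20 µg/mL above 0.2, at 0.64, where 14.2% of all genes were, and TFEB the single one below -0.2, at -0.53, where 15.1% were. The median of the 39 was 0.052, against -0.003 over all tested genes.

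Over the 6 replicated extracts, 28 of the 39 genes were called in at least 1 comparison of 500 against 20 µg/mL and 11 in none: TFE3, CTSH, CTSZ, GLB1, GAA, GUSB, NAGLU, ATP6V0B, ATP6V0C, ATP6V1F and ATP6AP1. The share of all genes called in at least 1 of the 6 was not worked out, and Menthae Herba alone called 32.1% of all genes. TFE3, CTSZ, GLB1, GUSB and ATP6V1F were called in none of the 24 comparisons, for which the share over all genes was not worked out either. Their ranges over all libraries were 42.6 to 56.99 CPM for TFE3, 68.2 to 83.1 CPM for the beta-galactosidase GLB1, 36.7 to 48.3 CPM for the beta-glucuronidase GUSB and 27.7 to 44.9 CPM for ATP6V1F. GUSB has 12 annotated pseudogenes.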

How the data were processed

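Messenger RNA of HepG2 cells was sequenced from a strand-specific MGI library kit as 100-base read pairs, per the labels' protocols. The deposited table gives expected counts per gene as RSEM estimated them; the submitters' processing notes name FastQC 0.11.9, Trim Galore 0.6.5, STAR 2.7.3a, RSEM 1.3.3 and GRCh38, and the strand setting of the counting is not given in the sources used here. Of the nonzero values 71.9% were whole, and all were rounded before testing. Groups came from the sample labels. A wortmannin control named in the series text was not analysed here.

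In R 4.3.3, edgeR 4.0.16 (limma 3.58.1) kept genes by filterByExpr with a minimum count of 10, scaled libraries by the trimmed mean of M-values and fitted 57 libraries in 19 groups with robust quasi-likelihood; Soshiho-tang, with 1 library per dose, stayed out of the fit. P-values were adjusted by Benjamini-Hochberg over 16644 genes, and the standard error is the log2 fold change divided by the square root of F. Symbols were found for 56558 of 60675 gene identifiers. Promoters were read from RefSeq on GRCh38.p14, and gene positions from GENCODE v29. The tests were checked on simulated data with the layout of Guibi-tang at 500 against 20 µg/mL. Of 67, 67 and 66 genes changed by 1.2, 1.5 and 2-fold, 38.8%, 86.6% and 97% were recovered, with 5 false calls among 16453 genes. The changed genes were drawn from those with higher counts, and no difference between the MALAT1 classes was simulated.

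Genes named with values in every library were, by rule, up to 4 called members of largest change in each comparison of 500 against 20 µg/mL, and TFEB, TFE3, LAMP1 and LAMP2. NEU1 and MCOLN1 with Guibi-tang and PSAP and NEU1 with Menthae Herba were added after their values were seen; further genes came from fixed lists, of which some members are counted but not reported by name here. The members, lists and rule were chosen with earlier results of these data known. Alternatives were DESeq2 1.42.0, its size factors (RLE), no filter, only the groups compared, the replicate number as a block, the MALAT1 class as a term, and each library left out. Figures were drawn with matplotlib 3.10.9.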

Additional observations from a re-analysis of the deposited data

Results flagged for a closer look

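The dose change of 500 against 20 µg/mL differed between extracts, by a test of the difference itself, for the genes below, with p-values adjusted over all tested genes by edgeR. Values are differences of log2 fold changes. In Menthae Herba minus Saposhnikoviae Radix, TFEB differed by -0.55, while the membrane proteins LAMP2, CD63 and SCARB2 differed by 0.26, 0.43 and 0.36. The proteases CTSB, CTSC and CTSL differed by 0.36, 0.25 and 0.41, the glycosidases GLA and HEXA by 0.36 and 0.38, and the saposin precursor PSAP by 0.29. The pump genes ATP6V1E1, ATP6V1H and ATP6AP2 differed by 0.22, 0.36 and 0.32. ATP6V1E1 lost its call in 10 of the 12 fits without 1 library, and GLA without the third library of Menthae Herba at 20 µg/mL (0.23).

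In Saengmaek-san minus Guibi-tang, ASAH1 differed by -0.62, NEU1 by -0.49, CTSA by -0.42 and CTSD by -0.33. ATP6V0E1 differed by -0.50 and ATP6V1E1 by -0.36. In the fit of those groups alone ASAH1 stayed called and the other 5 did not.

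In Guibi-tang minus Menthae Herba, a comparison chosen after the values of both were seen, ASAH1 differed by 0.61, NEU1 by 0.60, CTSA by 0.48, MCOLN1 by 0.42 and TFEB by 0.41. Among the pump subunits ATP6V0C differed by 0.40, ATP6V0D1 by 0.37, ATP6V1B2 by 0.30 and ATP6V1C1 by 0.26. LIPA differed by -0.31, SCARB2 by -0.29, ATP6AP2 by -0.28 and CTSC by -0.21. No cause of these differences was tested.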

How the results depend on the processing

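With Guibi-tang, 500 against 20 µg/mL called 17 to 20 of the 39 genes under the settings that keep all libraries of both doses, and with Menthae Herba 16 to 20. Saposhnikoviae Radix and Okbyeongpung-san kept 0 there. With only the groups compared, calls over all genes moved too. For 500 against 20 they were 55 (326 in the report) for Saengmaek-san, 1678 (1262) for Soyo-san and 37 (192) for Saengmaek-san minus Guibi-tang. Against vehicle at 100 they were 2370 (2337) for Menthae Herba, 1239 (910) for Saposhnikoviae Radix, 200 (1325) for Guibi-tang and 1232 (2154) for Okbyeongpung-san. At 20 they were 244 (1136) for Menthae Herba, 223 (729) for Guibi-tang and 273 (1164) for Okbyeongpung-san. Counts of the 39 that moved by more than 1.5 times are given next, and the cause was not tested. Without the low-count filter, Saengmaek-san 500 against 20 gave 0 (1 in the report), Soyo-san 500 against 20 gave 2 (6), and against vehicle Saposhnikoviae Radix gave 3 (1) at 500 and 3 (1) at 100, and Saengmaek-san 1 (0) at 100 and 1 (0) at 20 µg/mL. With only the groups compared, Saengmaek-san 500 against 20 gave 0, Soyo-san 10, Saengmaek-san minus Guibi-tang 1 (6), and against vehicle Menthae Herba 100 gave 11 (7), Saposhnikoviae Radix 100 gave 3, Guibi-tang 100 gave 0 (6), Okbyeongpung-san 100 gave 3 (6), and Menthae Herba 20, Guibi-tang 20 and Okbyeongpung-san 20 gave 0 (3, 3 and 4). With the MALAT1 class as a term, Saengmaek-san 500 against 20 gave 2, and against vehicle Saposhnikoviae Radix gave 2 at 500 and 3 at 100, Menthae Herba 100 gave 11, Saengmaek-san 8 at 100 and 1 at 20, Guibi-tang 100 gave 10 and Okbyeongpung-san 20 gave 7. DESeq2 gave 2 for Saposhnikoviae Radix against vehicle at 500 and 2 at 100, 1 for Saengmaek-san 100 and 9 (4) for Soyo-san 100. With the class term LAMP1 turned from below to above vehicle for Soyo-san 100 (0.12), Okbyeongpung-san 100 (0.13) and Okbyeongpung-san 20 (0.14).

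In 0 of 24 comparisons were all 3 correlations of same-numbered libraries over 0.1 (range -0.223 to 0.277), so the replicate numbers were not taken as pairs. The numbers went in part with the MALAT1 class. With Guibi-tang, replicate 1 was in the lower class and replicate 3 in the higher at every dose. For 500 against 20 µg/mL their correlations were 0.222 and 0.183, against -0.093 for replicate 2, whose class differed between these doses. With Saengmaek-san the correlations were 0.039, 0.068 and 0.277. With the replicate block Saengmaek-san 500 against 20 gave 2, and against vehicle Saposhnikoviae Radix gave 2 at 500 and 3 at 100 and Saengmaek-san 100 gave 1; with the block within the first code number Saengmaek-san 500 against 20 gave 3 and Soyo-san 10.

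Leaving out each library, 500 against 20 called 12 to 18 genes for Menthae Herba, 14 to 18 for Guibi-tang, 2 to 4 for Soyo-san, 0 to 1 for Saengmaek-san, and 0 to 0 for Saposhnikoviae Radix and Okbyeongpung-san. Against vehicle at 500 µg/mL it called 18 to 21 for Menthae Herba, 0 to 2 for Saposhnikoviae Radix, 4 to 7 for Saengmaek-san, 16 to 23 for Guibi-tang, 9 to 14 for Soyo-san and 1 to 5 for Okbyeongpung-san. At 100 µg/mL the ranges in that order were 2 to 8, 0 to 1, 0 to 1, 1 to 7, 0 to 6 and 3 to 7, and at 20 µg/mL 0 to 2, 0 to 3, 0 to 1, 0 to 3, 0 to 2 and 1 to 4. Between dose changes it called 11 to 14 for Menthae Herba minus Saposhnikoviae Radix, 3 to 7 for Saengmaek-san minus Guibi-tang, 0 to 0 for Soyo-san minus Okbyeongpung-san and 10 to 15 for Guibi-tang minus Menthae Herba. Of single-gene values under leave-one-out, 1604 kept their side of the threshold in the same direction, 328 lost their call and 6 gained one.

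With 3 libraries a group, 1.2-fold changes were recovered for 38.8% of the changed genes in the simulation of Guibi-tang at 500 against 20 µg/mL. This limits what an uncalled gene shows. The share was not worked out for the other comparisons, where the number of genes called differs, nor for genes with low counts. Code number and treatment cannot be told apart against vehicle, and ATP6V0C, ATP6V1F, ATP6V1D, CTSA, CTSD, HEXA and MCOLN1 hold reads shared by estimate in 24 or more of the 60 libraries.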
